A study of Macaca mulatta with 6 samples.

Results

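The genes of the proteasome were examined in 6 bulk RNA sequencing libraries of rhesus monkey (Macaca mulatta) spermatogonial stem cells (SSCs) kept in culture. Members were the rows of the count table whose symbol began with PSMA, PSMB, PSMC, PSMD, PSME or PSMG followed by a digit, which took 42 of the 17795 genes listed. Of these, 40 encode subunits, activators or assembly chaperones of the proteasome, and the other 2, PSMC3IP and PSME3IP1, do not. The 4 members of the immunoproteasome, PSMB8, PSMB9, PSME1 and PSME2, were kept apart from the other 36. PSMA5, PSMB6, PSMB7, PSMB10, PSMB11, PSMD7 and PSMG2 were not analysed here. The PDGF group held 3 libraries from cultures given human platelet-derived growth factor (PDGF), a ligand of receptor tyrosine kinases on mesenchymal and other cells, and the PDGFNO group held 3 libraries from PDGF-free cultures. By the study's culture methods the SSC medium also held serum, GDNF, EGF, LIF, bFGF and Wnt3a, and the cells were embedded in droplets of a basement membrane gel. In both groups replicate 1 belongs to batch 1, and replicates 2 and 3 to batch 2. The labels give testis as the tissue, and neither they nor the methods name the age of the donors or say whether the replicates of a group were separate cultures, so p-values measure only the spread between these libraries, which may be technical. The comparison asked which proteasome genes differed in level between cells grown with and without PDGF.

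The proteasome is the large protease that degrades proteins tagged with ubiquitin in the cytosol and nucleus. Its 20S core is a barrel of alpha rings, which form the gate, and beta rings, which hold the proteolytic sites, and the 19S particle on its ends recognizes tagged proteins, removes the ubiquitin and unfolds the chain with a ring of ATPases. Interferon induces the alternative catalytic subunits of the immunoproteasome and the PA28 activator, and male germ cells make an alpha subunit of their own, PSMA8. The transcription factor NFE2L1 raises proteasome genes through antioxidant response elements when proteasome activity is short.

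Sequences of 2 kinds bear on how the values can be read. The first concerns PSMC6, an ATPase of the 19S ring, because its counts were the same in all 6 libraries as those of LOC693577, which RefSeq annotates as a 26S regulatory subunit 10B, the protein that PSMC6 encodes. In RefSeq's Mmul_10 annotation PSMC6 lies on chr7:114804968-114827570 (plus strand, 14 exons) and LOC693577 on chr1:104736190-104737741 (minus strand, 1 exon). Their coding sequences were identical at 98.9% of 1170 aligned bases, with 13 differences. Of these differences 4 lay in a stretch of 120 coding bases, bases 742 to 861 of the LOC693577 coding sequence, where capitals mark the bases that differ:
PSMC6: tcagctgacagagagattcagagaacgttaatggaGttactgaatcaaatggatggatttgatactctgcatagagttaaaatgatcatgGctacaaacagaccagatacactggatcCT
LOC693577: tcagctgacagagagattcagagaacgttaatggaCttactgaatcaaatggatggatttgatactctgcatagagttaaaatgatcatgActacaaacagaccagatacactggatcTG
The alignment also held 219 columns with a gap. No read mapping was examined, and the cause of the equal counts was not tested. The counts given below as PSMC6 cannot be assigned to either gene.

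The second set is the 250 bases before the annotated start of 4 members. They are the members named by the rule given below whose window holds the letters TGACNNNGC, the core of the antioxidant response element (capitals, either strand). PSMC3, PSMD2 and PSMD9, named outside that rule, also held the letters and are not printed. The windows lie on chr10:97286050-97286299 for PSMA7, chr1:99705949-99706198 for PSMB4, chr16:63744432-63744681 for PSMD12 and chr7:86234261-86234510 for PSME2, all of Mmul_10 and all on the minus strand, and are printed 5′ to 3′ toward the gene:
PSMA7: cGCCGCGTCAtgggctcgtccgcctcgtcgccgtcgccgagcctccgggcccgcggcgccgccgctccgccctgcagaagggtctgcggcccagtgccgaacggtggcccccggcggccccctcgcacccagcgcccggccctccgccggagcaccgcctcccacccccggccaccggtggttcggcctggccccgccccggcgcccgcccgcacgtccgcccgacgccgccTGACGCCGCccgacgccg
PSMB4: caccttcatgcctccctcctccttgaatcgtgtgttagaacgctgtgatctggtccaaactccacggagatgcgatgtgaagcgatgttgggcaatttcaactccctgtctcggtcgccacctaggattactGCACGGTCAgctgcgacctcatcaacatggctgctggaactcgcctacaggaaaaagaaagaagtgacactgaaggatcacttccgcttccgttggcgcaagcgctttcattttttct
PSMD12: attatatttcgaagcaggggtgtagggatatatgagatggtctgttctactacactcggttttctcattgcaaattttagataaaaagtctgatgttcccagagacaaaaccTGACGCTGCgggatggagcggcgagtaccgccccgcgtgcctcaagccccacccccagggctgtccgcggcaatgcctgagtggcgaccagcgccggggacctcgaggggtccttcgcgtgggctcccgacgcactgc
PSME2: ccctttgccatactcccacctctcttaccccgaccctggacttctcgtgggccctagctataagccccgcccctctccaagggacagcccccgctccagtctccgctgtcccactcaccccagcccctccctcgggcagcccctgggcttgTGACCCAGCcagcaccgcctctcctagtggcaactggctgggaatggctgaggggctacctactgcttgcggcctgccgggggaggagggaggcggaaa
The window of PSMA7 held 2 matches. Outside the immunoproteasome, 10 of 36 members (27.8%) held the letters in such a window, against 11.7% of the 11134 promoters of tested genes searched in the same way. The NF-Y box CCAAT was held by 27.8% of the 36 members against 31.5% of all promoters, and the GC box GGGCGG by 47.2% against 54.9%. The interferon-stimulated response element was held by 3 of the 36 and the gamma-activated letters TTCNNNGAA by 4 of the 36, against 2.59% and 5.67% of all promoters, and none of the 4 immunoproteasome members held either of them. Both strands were searched, the windows end at the outermost annotated start, which need not be the start used in these cells, and a match is a description of letters and not a binding site.

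Total counts ranged from 10593808 to 14102698 per library and were higher in all 3 PDGF libraries than in the PDGFNO libraries. The defining germ cell genes were near 0, with summed levels of DDX4, DAZL and MAGEA4 of 0.15 to 1.08 CPM (counts scaled to the library total after TMM normalization) with PDGF and 2.63 to 4.60 without, and STRA8, CD3E and PTPRC had no count in any library. The mesenchymal genes COL1A1, COL1A2, DCN and PDGFRB summed to 10561 to 15873 CPM with PDGF and 9531 to 12428 without. Of the undifferentiated spermatogonial markers, ID4 was at 127 to 135 CPM with PDGF and 148 to 177 without. UCHL1 was at 241 to 285 CPM with PDGF and 173 to 201 without (log2 fold change 0.51 ± 0.13, edgeR adjusted p = 0.0319, and up to 0.126 with a library left out). GFRA1, ERBB4 and ZBTB16 stayed under 1 CPM in every library. UTF1 and NANOS3 were not analysed here. The label of stem cells is thus not borne out by GFRA1, ERBB4 and ZBTB16, while ID4 and UCHL1 were well above 0. The 4 spermatid markers listed (TNP1, TNP2, ACRV1, TMEM190) summed to 48.7 to 76.7 CPM with PDGF and 415.7 to 688.5 without. In bulk libraries fewer cells of a type and less RNA per cell cannot be told apart, and the part of these marker differences in the values of proteasome genes was not tested.

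All 40 proteasome genes passed the filter on low counts, among 11539 genes tested. Their summed counts made up 0.559%, 0.531% and 0.525% of the PDGF libraries and 0.495%, 0.478% and 0.469% of the PDGFNO libraries in the order of the replicates. The shares did not overlap between the groups, and their mean was 0.538 ± 0.0179% with PDGF and 0.481 ± 0.0131% without (SD, n = 3 each), a ratio of 1.12. Single genes differed less clearly. PSMD11 and PSMD5 were higher in PDGF at an adjusted p under 0.05 in edgeR's quasi-likelihood test (5% of the 40, where 7.61% of all genes tested were called higher), and none was lower, where 10.7% of all genes were. At an unadjusted p under 0.05 the counts were 9 higher and 1 lower, where 15.7% of all genes were higher and 17.5% lower. DESeq2 and limma-voom each called 3 higher and none lower. By them 10.2% and 7.6% of all genes were higher, and 13.4% and 10.4% lower. The fold change was positive for 29 of the 40 and negative for 11. The median log2 fold change (PDGF over PDGFNO) was 0.14 (0.018 over all genes tested). The CPM of the groups did not overlap for 13 members that were higher in PDGF (32.5%, against 18.2% of all genes) and 3 that were lower (against 19.3% of all genes).

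Libraries of the same batch deviated together, and the fit that takes the replicate number as a block gave smaller standard errors for most members. It called 21 of the 40 higher (52.5%, against 31.1% of all genes tested) and 7 lower (17.5%, against 29.0%), namely PSMB4, PSMC3, PSMC5 and PSMG3 and the immunoproteasome members PSMB8, PSMB9 and PSME2. When the block was joined by an offset for GC content and transcript length, 25 were higher (62.5%, against 28.3% of the 11237 genes with both properties) and none was lower, where 27.7% of all those genes were. Counted over the 36 genes outside the immunoproteasome, batch as a term called 20 higher and 4 lower (31.2% and 29.4% of all genes). Batch 2 alone called 18 and 4 (26.2% and 26.6% of all genes). With replicates 2 and 3 of each group summed, none of the 36 was higher (1.72% of all genes). Adding batch as a term to those sums gave 20 higher and 3 lower (30.6% and 28.5% of all genes).

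**Figure D1:**
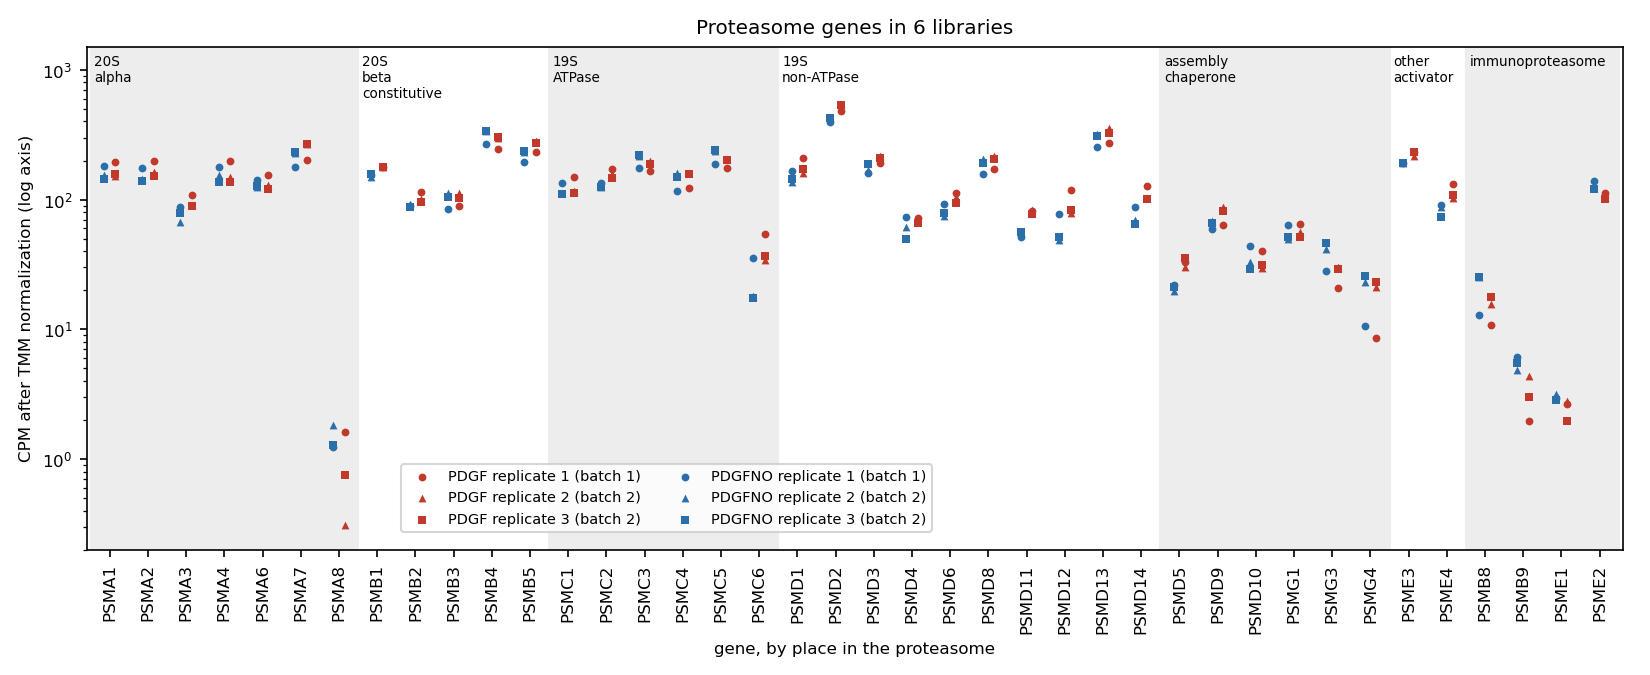
CPM after TMM normalization (log axis) of the 40 proteasome genes in each of the 6 libraries, ordered by place in the proteasome (grey and white bands), with PDGF in red, PDGFNO in blue and the replicate as the marker shape. The red points of PSMD11, PSMD14 and PSMD5 lie above all blue points, those of PSMB9, PSME1 and PSME2 below, and replicate 1 (circles) stands apart from replicates 2 and 3 for many genes.

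Of the 7 alpha subunits of the 20S core none was called without a block, their median log2 fold change was 0.07, and their share of all counts overlapped between the groups (ratio of means 1.10). With the block 3 of 7 were higher (42.9%, against 31.1% of all genes) and none lower. PSMA3, with the most positive value of the group, had 108, 91.5 and 88.6 CPM in PDGF replicates 1, 2 and 3 and 88.3, 67.7 and 79.2 CPM in the PDGFNO replicates. The lowest PDGF library lay just above the highest PDGFNO library, and the log2 fold change was 0.29 ± 0.16 (SE; adjusted p by edgeR = 0.234 without and 0.000565 with the block). PSMA7, the subunit whose place in the ring PSMA8 takes in male germ cells, had 203, 267 and 266 CPM with PDGF and 180, 229 and 233 without, higher in each replicate pair but overlapping between the groups. Its log2 fold change was 0.20 ± 0.17 (adjusted p by edgeR = 0.449, and 0.00118 with the block). The value was 0.50 with the block and offset (edgeR adjusted p = 5.7e-09). PSMA8 itself was nearly absent, with 24, 4 and 10 counts in the PDGF libraries and 15, 19 and 13 counts in the PDGFNO libraries. Its groups overlapped, the log2 fold change was -0.66 ± 0.57 (adjusted p by edgeR = 0.457), and the batches pointed in opposite directions, 0.38 in batch 1 and -1.58 in batch 2.

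Among the constitutive beta subunits, 4 of 5 were positive, with a median log2 fold change of 0.22, and none was called without a block. With the block 3 were higher (60%, against 31.1% of all genes) and 1 was lower (20%, against 29.0%). With the added offset all 5 were higher, where 28.3% of all genes were. PSMB5, which carries the chymotrypsin-like site, had 231, 282 and 272 CPM with PDGF and 196, 232 and 238 without. The groups overlapped only because PDGF replicate 1 lay below PDGFNO replicates 2 and 3, and the log2 fold change was 0.24 ± 0.14 (adjusted p by edgeR = 0.279 without and 0.000159 with the block). The value became 0.54 with the block and offset (edgeR adjusted p = 1.4e-09). PSMB4, a structural subunit without a catalytic site, was the exception in sign, with 245, 298 and 305 CPM with PDGF and 270, 340 and 339 without. It was lower in each replicate pair, by a log2 fold change of -0.16 ± 0.15 (adjusted p by edgeR = 0.495, and 0.00373 with the block), but its value turned to 0.14 with the GC and length offset beside the block (edgeR adjusted p = 0.00846), so its direction rests on that correction.

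Of the 6 ATPases of the 19S base, which form the ring that unfolds substrates, none was called without a block. With it 2 were higher and 2 lower (33.3% each), near the 31.1% and 29.0% of all genes. The median log2 fold change of the 6 was 0.07. Their summed share of counts overlapped between the groups (ratio 1.03). PSMC6 had the largest positive value of all 40 genes, with 54.6, 34.2 and 36.5 CPM with PDGF and 35.7, 18.0 and 17.3 without. PDGFNO replicate 1 was as high as PDGF replicates 2 and 3, so the groups overlapped, and the log2 fold change of 0.82 ± 0.32 did not pass (edgeR adjusted p = 0.115, and 5.4e-07 with the block). These counts cannot be divided between PSMC6 and LOC693577. PSMC5 had the most negative value of the ATPases, with 174, 204 and 201 CPM with PDGF and 189, 235 and 242 without. It was lower in all 3 pairs, at a log2 fold change of -0.20 ± 0.15 (adjusted p by edgeR = 0.373, and 0.00164 with the block), which shrank to -0.03 with the offset for GC content and length (edgeR adjusted p = 0.597). PSMC3, another ATPase, named after its values were seen, was at -0.15 with the block (edgeR adjusted p = 0.0142) and turned to 0.09 with the offset (edgeR adjusted p = 0.121).

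The non-ATPase subunits of the 19S particle, which bind ubiquitin chains, form the lid and remove the chains, had the most members higher with PDGF. All 10 had positive log2 fold changes, with a median of 0.30. The groups did not overlap for 6 of them (60%, against 18.2% of all genes higher in that way). Their share of all counts was 0.193%, 0.189% and 0.185% with PDGF and 0.160%, 0.153% and 0.150% without. The ratio of the mean shares was 1.23. Of the 10, PSMD11 passed without a block (10%, where 7.61% of all genes were higher). With the block 9 were higher (90%, against 31.1% of all genes), and 9 with the block and the offset (90%, against 28.3%). PSMD11, a lid subunit that holds the 19S particle on the core, had 81.3, 83.0 and 77.5 CPM with PDGF and 51.8, 56.6 and 55.8 without. The difference was far larger than the spread within either group, 80.6 ± 2.86 against 54.8 ± 2.57 CPM (SD, n = 3 each), and PSMD11 rose by a log2 fold change of 0.56 ± 0.13 (adjusted p by edgeR = 0.0211). Its value was 0.39 with the block and offset (edgeR adjusted p = 6.1e-05). PSMD12, another lid subunit, had 118, 78.6 and 82.6 CPM with PDGF and 77.8, 48.8 and 51.4 without. Its groups did not overlap, though PDGF replicate 2 and PDGFNO replicate 1 nearly met, and its log2 fold change of 0.65 ± 0.24 passed only with the block (edgeR adjusted p = 0.0956 without and 1.8e-08 with it). It was 0.42 with the offset added (edgeR adjusted p = 1.1e-05). PSMD14, the deubiquitinase of the lid, was chosen after its values were seen because it lay just past the threshold. It had 127, 103 and 102 CPM with PDGF and 87.9, 69.4 and 65.2 without, with no overlap and a log2 fold change of 0.58 ± 0.17 (adjusted p by edgeR = 0.0502, and 4.5e-08 with the block). DESeq2 (adjusted p = 0.0224), limma-voom (adjusted p = 0.0498) and edgeR without a count filter called it. PSMD8, also of the lid, had the smallest value of the group without an offset, 0.10 ± 0.15 on the log2 scale (edgeR adjusted p = 0.68 without and 0.0754 with the block). It was at 0.32 with the block and offset (edgeR adjusted p = 9.7e-06).

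**Figure D2:**
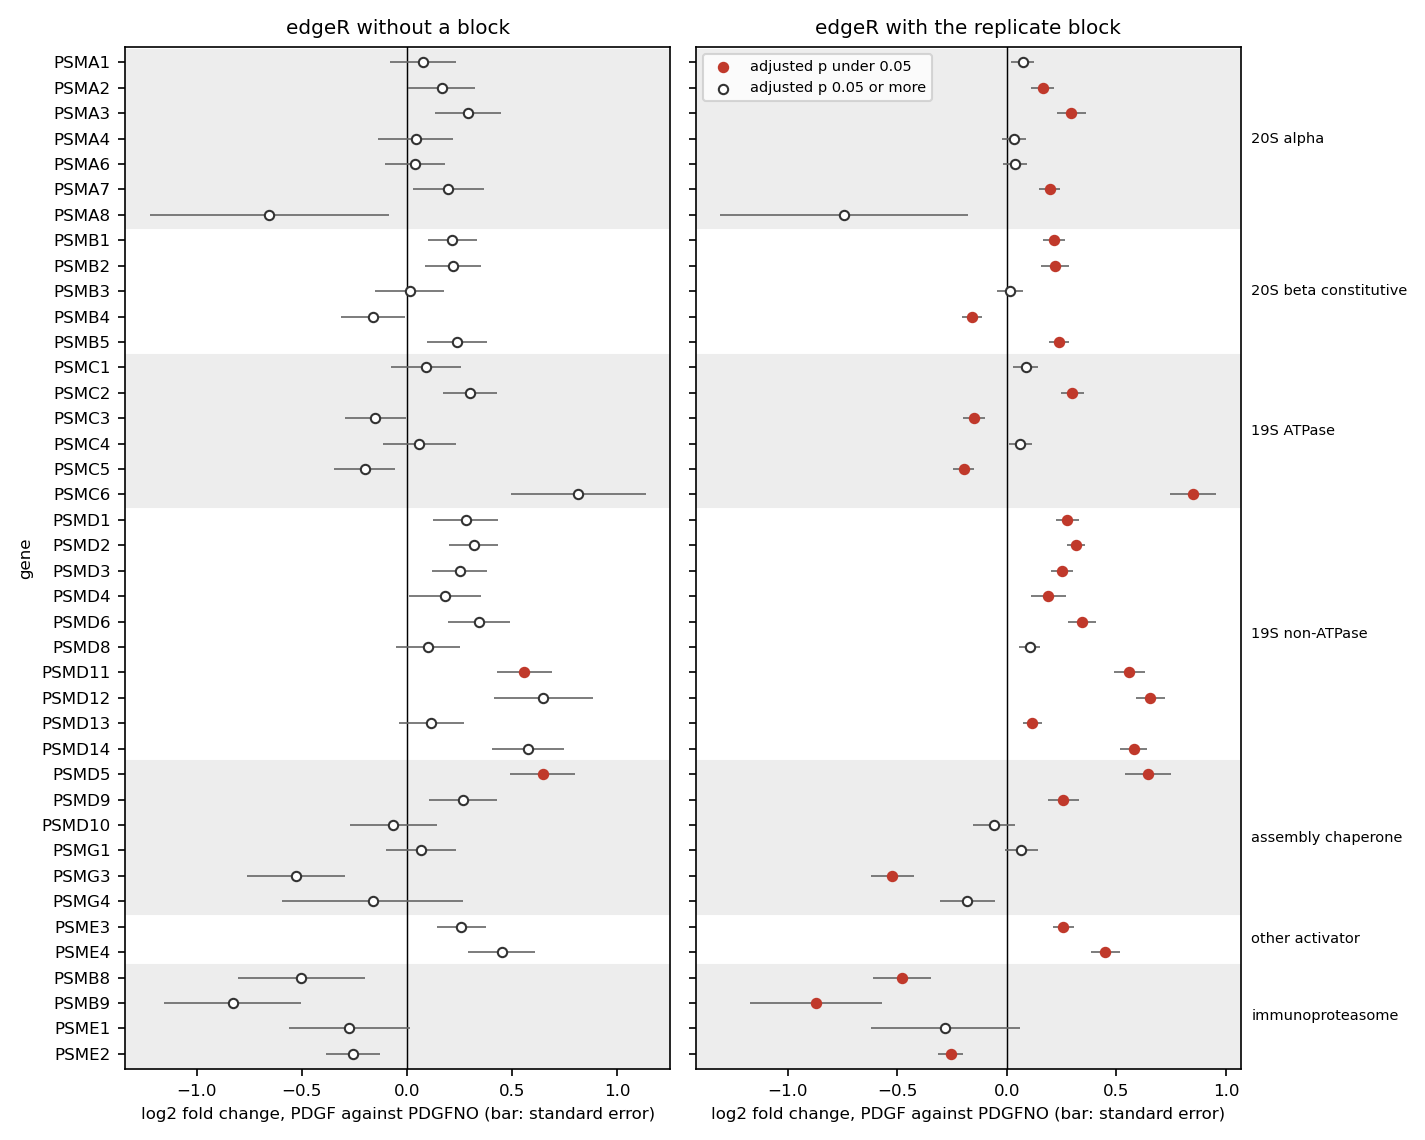
Log2 fold change (PDGF over PDGFNO) of each of the 40 proteasome genes with its standard error (bar), from edgeR without a block (left) and with the replicate block (right), ordered by place in the proteasome, where filled red points have an adjusted p under 0.05. The 10 non-ATPase subunits lie to the right of 0 and the 4 immunoproteasome genes to the left in both panels, and filled points increase from 2 to 28 with the block, where most bars are shorter.

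The calls on PSMD11 and PSMD5 depended on single libraries of batch 2, as did many calls over all genes. With all libraries 878 genes were called higher. The number was 435 without PDGF replicate 2 and 447 without PDGF replicate 3. It was 444 without PDGFNO replicate 2 and 441 without PDGFNO replicate 3. The edgeR adjusted p of PSMD11 was 0.0914 without PDGF replicate 2, 0.0689 without PDGF replicate 3, 0.0726 without PDGFNO replicate 2 and 0.0756 without PDGFNO replicate 3. For PSMD5 the same libraries gave 0.0608, 0.0988, 0.0960 and 0.0789. Without PDGFNO replicate 1 both remained and PSMC6, PSMD12 and PSMD14 were called higher as well, with PSMB8 and PSMG3 lower, where 10.9% of all genes were called higher and 14.7% lower. With replicates 2 and 3 of each group summed into 1 library, neither passed (edgeR adjusted p = 0.227 and 0.226). In the separate batches the log2 difference of PSMD11 was 0.65 in batch 1 and 0.51 in batch 2, and that of PSMD5 0.58 and 0.67.

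The 6 assembly chaperones, which hold subunits during assembly and leave the finished particle, were split, with 3 positive and 3 negative values and a median log2 fold change of 0.00. PSMD5, a chaperone of the 19S base, had 33.0, 30.0 and 35.5 CPM with PDGF and 22.0, 19.7 and 21.3 without. No PDGF library came near a PDGFNO library, the means were 32.8 ± 2.72 and 21.0 ± 1.16 CPM (SD, n = 3 each), and PSMD5 rose by a log2 fold change of 0.64 ± 0.15 (adjusted p by edgeR = 0.0227). Its value was 0.49 with the block and offset (edgeR adjusted p = 0.00042). PSMG3, a chaperone of alpha ring assembly, went the other way, with 20.8, 30.2 and 29.4 CPM with PDGF and 28.3, 41.8 and 46.0 without. It was lower in every replicate pair, but the low level of both replicates 1 made the groups overlap, and the log2 fold change was -0.53 ± 0.23 (adjusted p by edgeR = 0.154, 9.2e-05 with the block, and 0.184 with the block and offset, where the value was -0.15). PSMG4, its partner in alpha ring assembly and named after its values were seen, showed the widest gap between batches, with 8.57 and 10.5 CPM in the replicates 1 and 21.3 to 26.0 CPM in the other 4 libraries. Its log2 fold change was -0.18 with the block (edgeR adjusted p = 0.222) and 0.34 with the block and offset (edgeR adjusted p = 0.0248).

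Both remaining activators were higher with PDGF in every library. PSME3, which forms the nuclear PA28 gamma ring, had 232, 218 and 234 CPM with PDGF and 190, 190 and 192 without, a log2 fold change of 0.26 ± 0.12 (adjusted p by edgeR = 0.161, and 0.0001 with the block). This became 0.14 with the block and offset (edgeR adjusted p = 0.0166). PSME4, or PA200, which is prominent in the testis for its part in histone degradation, had 132, 104 and 108 CPM with PDGF and 91.6, 87.3 and 72.8 without. Its log2 fold change was 0.45 ± 0.16 (adjusted p by edgeR = 0.0884, and 5.1e-06 with the block), and it was 0.20 with the block and offset (edgeR adjusted p = 0.0124).

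**Figure D3:**
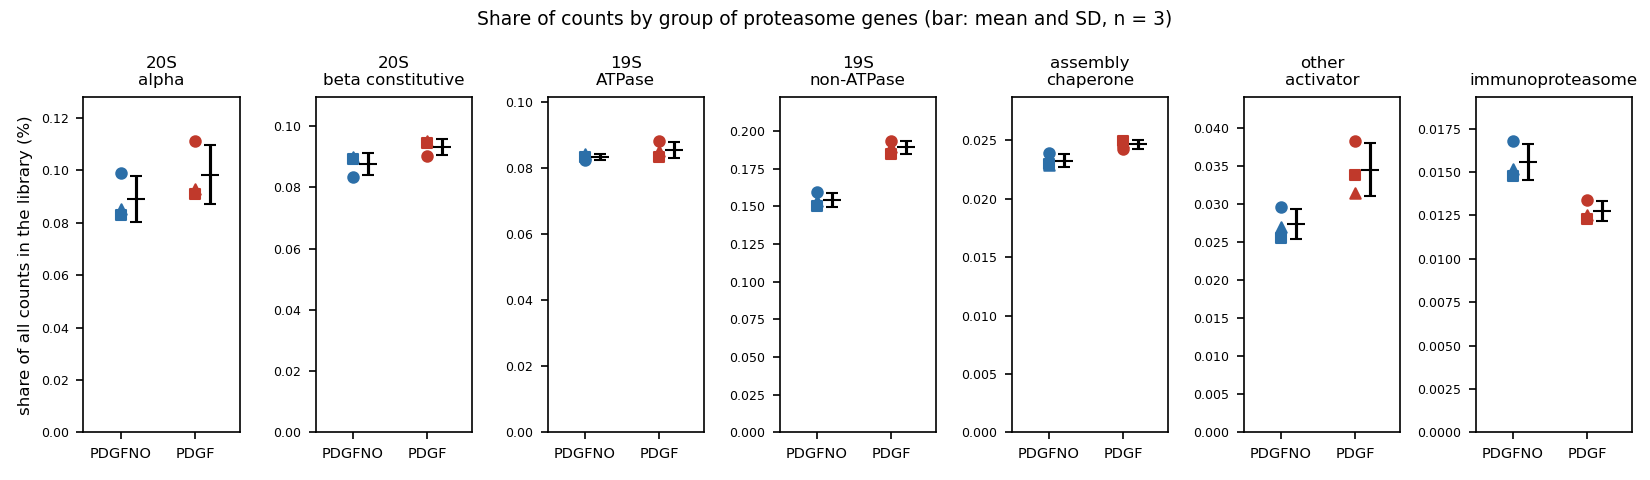
Share of all counts in a library (percent, each axis from 0) taken by each group of proteasome genes, with PDGFNO in blue and PDGF in red, a circle for replicate 1, a triangle for replicate 2, a square for replicate 3 and a bar for the mean and SD (n = 3). The red points of the non-ATPase group (0.185% to 0.193%) lie above the blue ones (0.150% to 0.160%), and those of the immunoproteasome (0.0123% to 0.0134%) below (0.0148% to 0.0168%). Most counts of the immunoproteasome group are those of PSME2.

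The 4 immunoproteasome genes had negative values with and without the block, opposite in sign to most of the other 36. With the offset PSME2 alone turned positive, at 0.11. None passed without a block, and neither DESeq2 nor limma-voom called any. PSMB9 alone of the 4 had an unadjusted p under 0.05, where 17.5% of all genes were lower in that way. With the block 3 of the 4 were lower (75%, against 29.0% of all genes). With the block and offset none passed, where 27.7% of all genes were lower and 28.3% higher. The median log2 fold change was -0.39, and their share of all counts was 0.0134%, 0.0125% and 0.0123% with PDGF and 0.0168%, 0.0152% and 0.0148% without, a ratio of means of 0.817. Most of these counts were those of PSME2 in every library, so the share mainly followed that gene. In PDGF replicate 1 PSME2 had 1658 counts, PSMB8 160, PSMB9 29 and PSME1 39. In PDGFNO replicate 1 they had 1680, 156, 75 and 36. PSMB8, the interferon-induced counterpart of PSMB5, had 10.8, 15.8 and 17.8 CPM with PDGF and 12.8, 25.1 and 25.1 without. PDGFNO replicate 1 fell among the PDGF libraries, and the log2 fold change was -0.50 ± 0.30 (adjusted p by edgeR = 0.285, 0.00345 with the block, and 0.178 with block and offset). The table gives TAP1, a neighbour in the major histocompatibility region that encodes a peptide transporter, the same counts as PSMB8 in all 6 libraries, so these reads cannot be assigned to either gene.

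PSMB9, the counterpart of PSMB6, was scarce, with 1.96, 4.38 and 3.01 CPM with PDGF and 6.16, 4.89 and 5.49 without. The groups did not overlap, and the log2 fold change was -0.83 ± 0.33 (adjusted p by edgeR = 0.117, 0.0165 with the block, and 0.0894 with block and offset). In RefSeq it overlaps TAP1 on the opposite strand by 1209 bases, and whether the counting used strand is not given in the sources used here. PSME2, the beta subunit of the PA28 activator, had 112, 105 and 102 CPM with PDGF and 138, 123 and 120 without, lower in every library. Its log2 fold change of -0.26 ± 0.13 (adjusted p by edgeR = 0.207, and 0.00047 with the block) turned to 0.11 with the block and offset (edgeR adjusted p = 0.0875). PSME1, the alpha subunit of PA28, had 1.95 to 2.82 CPM with PDGF and 2.84 to 3.16 without, and a log2 fold change of -0.27 ± 0.29 (adjusted p by edgeR = 0.543, and 0.492 with the block). This became -0.09 with the block and offset (edgeR adjusted p = 0.834).

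Of the 3 pairs of an immunoproteasome subunit and its constitutive counterpart, PSMB8 and PSMB5 could be compared within a library. The counts given as PSMB8 were the same as those of TAP1 in all 6 libraries, so the ratio need not measure PSMB8. The counts of PSMB8 were 4.68%, 5.59% and 6.54% of those of PSMB5 with PDGF and 6.53%, 10.8% and 10.5% without. PDGF replicate 3 and PDGFNO replicate 1 nearly met. The log2 ratio was -4.17 ± 0.24 with PDGF and -3.46 ± 0.41 without (SD, n = 3 each), and PDGF minus PDGFNO came to -0.71. An exact two-sided permutation test gave p = 0.1, which 3 against 3 cannot go below. Taken by batch, the log2 ratios differed by -0.48 in the first and -0.82 in the second.

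**Figure D4:**
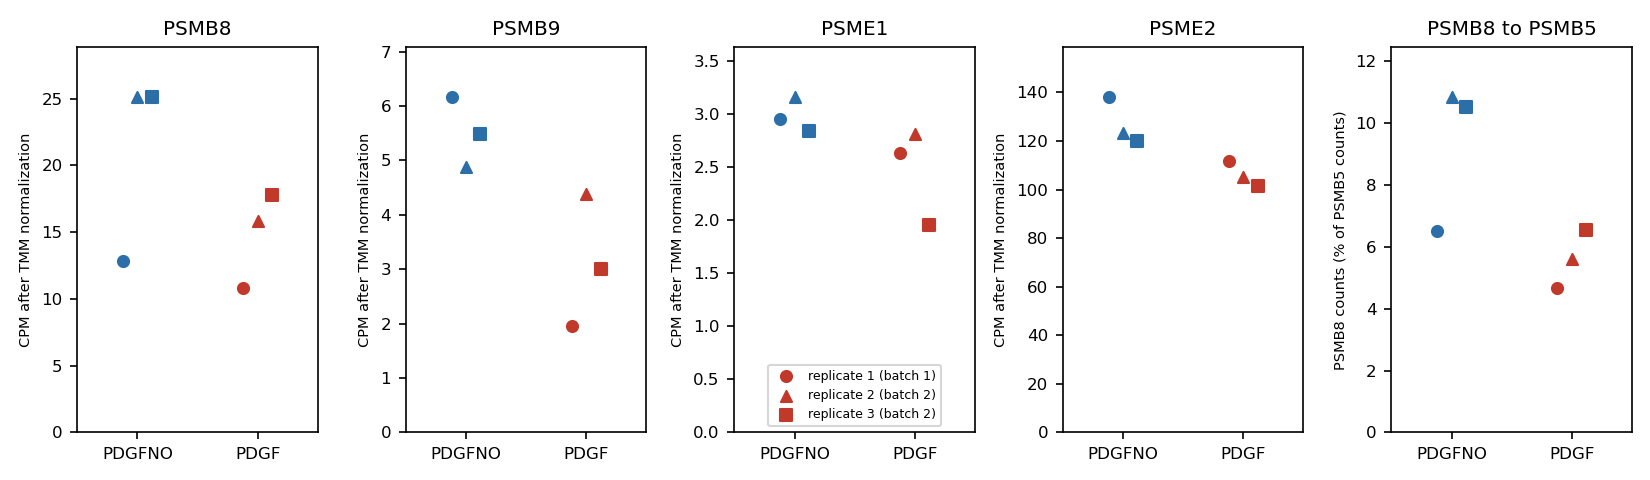
CPM after TMM normalization of PSMB8, PSMB9, PSME1 and PSME2, and counts of PSMB8 as a percentage of those of PSMB5, in the 3 PDGFNO (blue) and 3 PDGF (red) libraries, with the replicate as the marker shape and each axis from 0. PSMB9 and PSME2 show red points below all blue points, while for PSMB8 the blue circle of PDGFNO replicate 1 lies among the red points. The counts of PSMB8 are the same as those of TAP1 in every library.

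The 2 rows that the symbol rule took but that are no proteasome parts did not pass without a block. PSMC3IP, the HOP2 partner of meiotic recombinases, had 17.6 to 24.0 CPM with PDGF and 16.6 to 21.4 without, a log2 fold change of 0.22 ± 0.19 (adjusted p by edgeR = 0.467). PSME3IP1, which binds PSME3, had 37.6 to 59.5 CPM with PDGF and 47.3 to 64.7 without, a log2 fold change of -0.29 ± 0.21 (adjusted p by edgeR = 0.38, and 0.00352 with the block).

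Levels were compared between genes only per transcript length, in TPM (a library's counts per length, scaled to a fixed sum) computed here from the counts and RefSeq lengths, and TPM was not used to compare the groups. The alpha subunits other than PSMA8 lay within a narrow range of each other with PDGF, from 208 TPM for PSMA3 to 472 TPM for PSMA7, while PSMA8 was at 1.04 TPM. PSMB4 was the highest of the beta subunits in both groups, at 609 and 604 TPM. The level of PSMC6 comes from counts that were the same as those of LOC693577. The ATPases ranged from 49.1 TPM for PSMC6 to 276 TPM for PSMC5, the non-ATPases from 32.2 TPM for PSMD11 to 341 TPM for PSMD2, and the chaperones from 15.4 TPM for PSMD5 to 135 TPM for PSMD9, all with PDGF. PSMD11 and PSMD5, the members called, were thus the lowest of their groups per length. They also had the longest transcripts of their groups, 4998 and 4248 bases. The subunits of the PA28 ring, which are joined in 1 complex, were uneven, with PSME2 at 256 TPM and PSME1 at 3.78 TPM with PDGF, and 273 and 4.06 TPM without. In RefSeq PSME1 overlaps EMC9 on the opposite strand by 1469 bases.

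The gap between the batches followed GC content in the members as in all genes. Across the 40 members the log2 difference of batch 1 from batch 2 had a Pearson r of -0.82 with GC content (rho = -0.86), against -0.77 over the 11237 genes with both properties. Of the 20 members with a GC content under 50%, 19 were higher in batch 1, and of the 20 with 50% or more, 16 were lower. The log2 fold change between the groups had an r of -0.34 with GC content and 0.46 with transcript length across the members (-0.20 and 0.17 over all genes), and with the block and offset these were 0.15 and 0.01. These correlations are across genes, which share libraries and are not independent replicates. The median log2 fold change without an offset was 0.27 under 50% GC and 0.04 at 50% or more. With the block and offset it was 0.20 and 0.29. The offset takes out the trend with GC content and length in each library over all genes, the difference between the groups included. A weak slope after it follows from this construction and is not a result about the members.

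**Figure D5:**
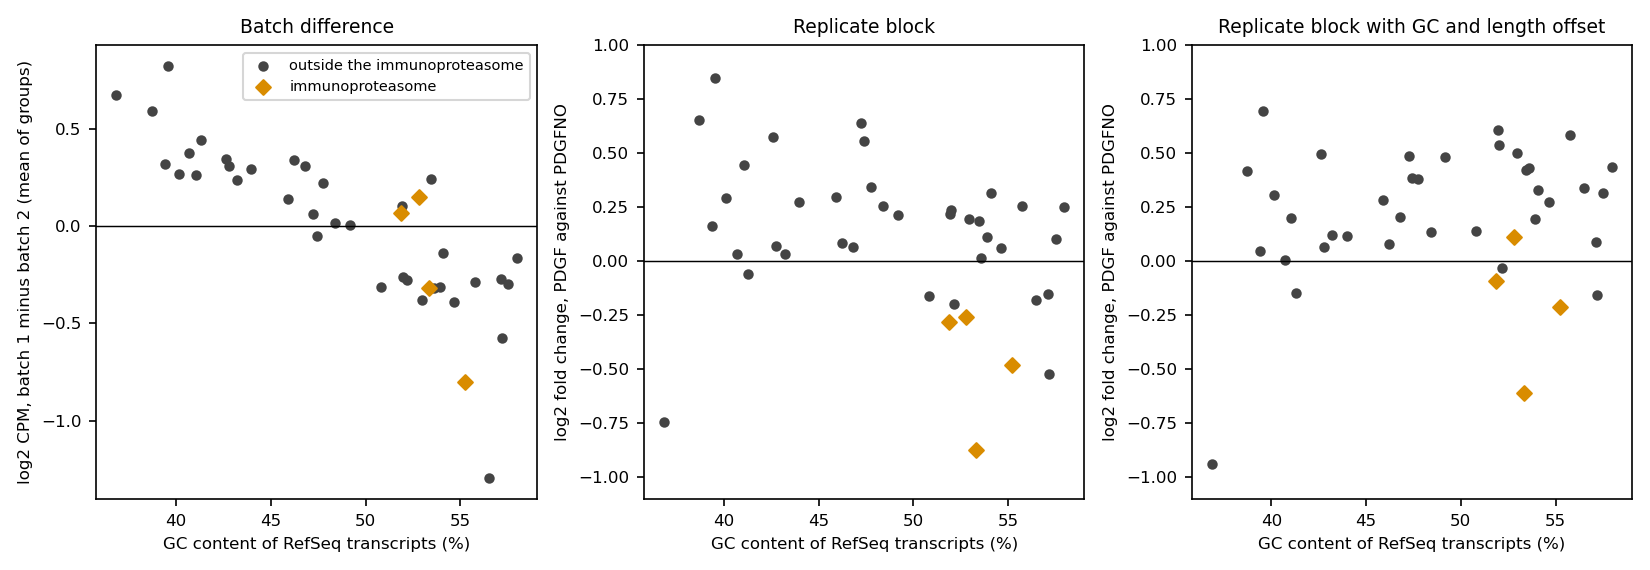
GC content of the RefSeq transcripts (percent) of the 40 proteasome genes against the log2 difference of batch 1 from batch 2 (left) and against the log2 fold change of PDGF over PDGFNO with the replicate block (middle) and with the block and the GC and length offset (right), with immunoproteasome genes as orange diamonds. The difference between batches falls with GC content (r = -0.82). The r of the fold change was 0.15 with block and offset (right). It was -0.34 in the fit without block or offset, which no panel shows. For the middle panel r is not given here. The offset takes out trends with GC content by its construction.

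Other genes of the ubiquitin and proteasome system were taken from 4 lists. Of 12 proteasome partners tested, none passed as higher and PITHD1, a protein that binds the 26S particle, was lower, with 62.4, 62.9 and 63.9 CPM with PDGF and 183, 150 and 145 without (log2 fold change -1.34 ± 0.14, edgeR adjusted p = 0.00079). Over all genes tested the shares called higher and lower were 7.61% and 10.7% without the block and 31.1% and 29.0% with it. With the block 5 of the 12 partners were higher (41.7%) and 4 lower (33.3%). Of 18 genes of ubiquitin supply and delivery, none was higher and 2 were lower without the block (11.1%, near the share of all genes). With the block 10 were higher (55.6%) and 3 lower (16.7%). The 2 were RPS27A, which encodes ubiquitin fused to a ribosomal protein (log2 fold change -0.53 ± 0.12, edgeR adjusted p = 0.0196), and DDI1, a testis protease of the shuttle factor family, which was at 0.0751 to 0.608 CPM with PDGF and 3.64 to 5.0 CPM without (log2 fold change -3.30 ± 0.53, edgeR adjusted p = 0.0045).

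Among 12 genes of NFE2L1 control, 3 rose (25%, against 7.61% of all genes) and 1 fell (8.33%, against 10.7%) without the block. With it 7 rose (58.3%, against 31.1%) and 2 fell (16.7%, against 29.0%). NFE2L1 itself had 300, 329 and 326 CPM with PDGF and 279, 281 and 294 without, each PDGF library above all PDGFNO libraries, with a log2 fold change of 0.16 ± 0.12 (adjusted p by edgeR = 0.373). MAFF, a small MAF partner of the NFE2L proteins, rose by a log2 fold change of 1.70 ± 0.21 (adjusted p by edgeR = 0.00146), from 29.6 to 46.6 CPM without PDGF to 103 to 137 CPM with it. SYVN1 and SEL1L, the ligase and adaptor that remove proteins, NFE2L1 among them, from the endoplasmic reticulum, rose by 0.82 ± 0.24 and 0.69 ± 0.15 (adjusted p by edgeR = 0.0453 and 0.016). FBXW7, a ligase receptor that targets NFE2L1, fell (log2 fold change -0.79 ± 0.20, edgeR adjusted p = 0.0311). Of 16 genes tested for peptide loading and interferon control, none rose and 2 fell without the block (12.5%, near the 10.7% of all genes). With it 9 rose (56.2%, against 31.1%) and 6 fell (37.5%, against 29.0%), and 1 of the 16 is TAP1, with the counts of PSMB8. The 2 were IFNGR2, a chain of the interferon gamma receptor (log2 fold change -0.65 ± 0.12, edgeR adjusted p = 0.00841), and JAK1, its kinase (log2 fold change -0.46 ± 0.13, edgeR adjusted p = 0.0400). Of the list genes given here, PITHD1, DDI1 and MAFF stayed past the threshold with any 1 library left out. The other calls were lost that way, RPS27A, SEL1L and FBXW7 without PDGF replicate 2 or 3 or PDGFNO replicate 2 or 3, SYVN1 and JAK1 without any 1 of these or PDGFNO replicate 1, and IFNGR2 without PDGF replicate 3. The highest edgeR adjusted p with a library left out was 0.0895 for RPS27A, 0.138 for SYVN1, 0.0730 for SEL1L, 0.115 for FBXW7, 0.0548 for IFNGR2 and 0.153 for JAK1.

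Of the 4 myeloid markers, CD74, an interferon-induced chaperone of MHC class II, was at 3.51 to 4.51 CPM with PDGF and 6.99 to 9.44 without (log2 fold change -1.07 ± 0.23, edgeR adjusted p = 0.0156, and 0.0668 without PDGF replicate 2 and 0.0564 without PDGFNO replicate 3). CD68, a lysosomal protein abundant in macrophages, was at 14.1 to 17.3 CPM with PDGF and 10.1 to 14.5 without (log2 fold change 0.28 ± 0.20, edgeR adjusted p = 0.372, and 0.43 with adjusted p = 0.0204 with the block and offset). CD14 was at 0.675 to 1.41 CPM with PDGF and 0.882 to 2.05 without (edgeR adjusted p = 0.530), and PTPRC, which marks blood cells, had no count in any library.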

How the data were processed

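Bulk RNA sequencing counts of 3 PDGF and 3 PDGFNO libraries were analysed. The authors deposited expected counts per gene without normalization, of which 34 values in 13 genes, none of them a member, are not whole, and all were rounded. Tests had been planned for whole counts. The submitters' processing notes list fastp, HISAT2 2.1.0, SAMtools and featureCounts 2.0.1 and the builds Mmul_10 and Mmul_8.0.1 without their roles, and the annotation and strand setting are not given in the sources used here. Sequences, coordinates, GC content and length are from RefSeq on Mmul_10, where 17389 of the 17795 symbols were found. Of the 42 members, 9 overlap another listed gene there.

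Counts were filtered (filterByExpr by group), normalized (TMM) and tested with edgeR 4.0.16 quasi-likelihood under R 4.3.3, with Benjamini-Hochberg adjustment over all 11539 genes and a threshold of 0.05. Standard errors (SE) were derived from the fold change and its F statistic. CPM uses TMM-scaled totals, TPM the median RefSeq transcript length. Log2 differences within a batch had 0.5 counts added. Alternatives were other normalizations and filters, DESeq2 1.42.0, limma-voom (limma 3.58.1), a replicate block, a batch term, batch 2 alone, a GC and length offset, replicates 2 and 3 summed, a stricter threshold and each library left out. By the labels, equal replicate numbers share a batch. Deviations from the group means correlated within pairs 1, 2 and 3 with r = 0.73, 0.35 and 0.37 across genes. Between replicates 2 and 3 of different groups r was 0.36 and 0.39. The correlations thus followed the batch, and within batch 2 they did not single out equal numbers as pairs. The block used the replicate number, and a replicate pair means only libraries of equal number. On simulated counts for PDGF against PDGFNO with 11430 genes tested, edgeR recovered 169 of 200 changed genes (98% at a log2 fold change of 2, 71% at 1) with 10 false calls. The simulated counts held no batch or GC difference and no change smaller than 1. The members ranged from -0.83 to 0.82 without a block, so recovery at their sizes was not measured.

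The members and lists were chosen with earlier results of these data known. By rule, the members named were those called, the immunoproteasome and catalytic subunits, PSMA7, PSMA8, PSME3, PSME4, the 2 rows that are no proteasome parts, and the extremes of log2 fold change in each group. Others named (PSMD14, PSMG4, PSMC3 and genes at the ends of the TPM ranges) were chosen after their values were seen. From the lists of other genes, the called ones with the largest changes were named, up to 3 higher and 3 lower. NFE2L1, CD74, CD68, CD14 and the other cell type markers were named in addition.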

Additional observations from a re-analysis of the deposited data

How the results depend on the processing

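Without a block, 2 proteasome genes outside the immunoproteasome were called higher and 0 lower (7.61% and 10.7% of all genes). At an unadjusted p under 0.05 these were 9 and 0 (15.7% and 17.5% of all genes). The replicate block, with the replicate number as a term, gave 21 higher and 4 lower (31.1% and 29.0% of all genes), batch as a term 20 and 4 (31.2% and 29.4%), batch 2 alone 18 and 4 (26.2% and 26.6%), the block with the GC and length offset 25 and 0 (28.3% and 27.7%), and 2 settings added after the data were seen gave 18 and 0 (offset without a block, 20.9% and 21.4%) and 20 and 3 (replicates 2 and 3 summed, batch as a term, 30.6% and 28.5%). Replicates 2 and 3 summed without a batch term (1.72% of all genes higher), and a threshold of 0.01 (share of all genes not given here), gave 0 higher. Leaving out 1 library gave 0 to 5 higher and 0 to 1 lower, and both extremes above 2 and 0 came without PDGFNO replicate 1. Over all genes these fits called 435 to 1284 higher and 726 to 1726 lower, with both maxima without PDGFNO replicate 1. Immunoproteasome genes called lower numbered 0 without a block, 3 with the replicate block, 3 with batch as a term, 2 in batch 2 alone, 3 with the summed libraries and batch as a term, and 0 to 1 with a library left out. PSMB4 turned to 0.14 and PSME2 to 0.11 with the offset, with or without the block, PSMC3 to 0.09 and PSMG4 to 0.34 with the block and offset, and PSMD8 ranged from -0.0072 (without PDGFNO replicate 1) to 0.20 with 1 library left out. The cause of these changes was not tested. The fits with libraries summed or left out also held fewer libraries. The other normalizations and filters, DESeq2 and limma-voom left the sign and side of the threshold of the 20 members named by rule as they were (for PSMA8 1 of the filters gave no value), while PSMD14, outside that rule, was called with DESeq2, limma-voom and no count filter. Between the settings tried for them, the log2 ratios of the group shares and of PSMB8 to PSMB5 moved by less than the spread between replicates. Counts of members near 0 (PSMA8, PSME1, PSMB9) limit what could be detected.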
